A study of Drosophila melanogaster with 2 samples.

Results

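The genes described here are 39 Drosophila melanogaster genes of the synapse and of electrical signalling, named one by one and found by their Ensembl gene names. All 39 were matched, out of 13945 protein-coding genes on arms 2L, 2R, 3L, 3R, 4 and X. The assay was chromatin immunoprecipitation followed by sequencing (ChIP-seq) on whole embryos of both sexes, 0 to 24 hours old. The embryos came from the transgenic strain CG7786-GFP, which stably carries CG7786 with GFP (eGFP in another label) at its C terminus. The labels name an anti-GFP antibody in one field and CG7786 in the antibody field, and they do not state which promoter drives the transgene. The 2 libraries, biological replicates 2 and 3, are 1 group with no second condition. The values were therefore read between the replicates and beside other genes, with no test.

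The CG7786 protein is predicted to be a transcription factor with a basic leucine zipper (bZIP), of the PAR family, whose members bind DNA as dimers. Most of the 39 genes code for parts of chemical and electrical signalling by neurons, and the rest for neuronal RNA-binding proteins, receptors on muscle and structural or adhesion proteins. Vesicle proteins and the SNARE complex release transmitter when calcium enters through voltage-gated channels, enzymes and transporters make and load the transmitter, and receptors on the next cell respond to it. Some of the 39 genes, such as elav, are used as markers of differentiated neurons, which are only a part of the cells in a whole embryo. A site bound in few cells and a site bound weakly in many cells cannot be told apart in such a sample.

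Few of these genes carried a peak. A peak was placed by its summit, and a gene counted at its promoter when a summit of the authors' list of reproducible peaks lay within 500 bp of any of its transcription start sites (TSSs). That list, from the irreproducible discovery rate (IDR) procedure, holds 4045 peaks on dm6. Of the 39 genes 4 (10.3%) had a promoter peak: elav, sei, dlg1 and Nrx-1. Over all protein-coding genes the share was 19.5%. A wider window, the span, took the gene body plus 2000 bp upstream. In their spans 8 of the 39 genes (20.5%) had a peak, against 27.7% of all protein-coding genes.

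The genes are long, with a median length of 27653 bp against 2166 bp over all protein-coding genes, and long genes have more room for peaks. Each gene was therefore set beside the 200 other protein-coding genes nearest to it in length. Of these 7800 pairings, which drew on 3363 distinct genes, 48.1% had a span peak and 25.5% a promoter peak. The synaptic and channel genes were below that share in both windows, at 20.5% and 10.3%. They also had more annotated TSSs, a median of 2 against 1 in the genes of similar length. The promoter share depended on the number of TSSs: over all protein-coding genes it was 14.9% with 1 TSS, 27.2% with 2, 39.1% with 3, 46.8% with 4 or 5 and 57.6% with 6 or more. Weighted to the numbers of TSSs of the 39 genes, that came to 28.1%.

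The spans of the 39 genes cover 1.54 Mb once overlaps are merged, or 1.15% of the 6 arms. They held 11 of the 4045 IDR summits, or 0.272% of them. That is 0.714 summits per 100 kb, against 3.25 per 100 kb in the merged spans of the genes of similar length and 3.02 per 100 kb over the arms. The peaks that were present covered both strong and weak ones. Their signal value, the authors' score per peak on the scale of their peak caller, had a median of 228 and ran from 83.2 to 460, against a median of 130.1 over the whole IDR list. Of the 11 peaks 7 lay above that median, and 3, at sei, Shab and dlg1, were at rank 3395 or lower of 4045. These scores are not read counts, and the depth behind them is unknown.

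**Figure D1:**
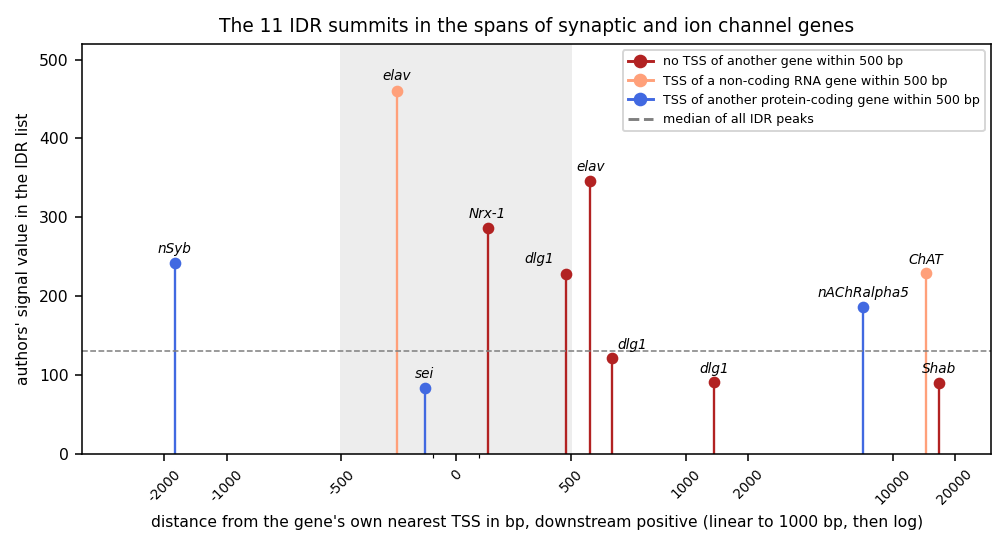
The 11 IDR summits in the spans of the 39 genes, by distance in bp from the gene's own nearest TSS (x axis, downstream positive, linear to 1000 bp and logarithmic beyond) and by the authors' signal value (y axis). The grey band marks 500 bp on either side of the TSS and the dashed line the median of all IDR peaks, 130.1. Of the 11 summits 4 stand in the band, and 3 (blue) lie within 500 bp of a TSS of another protein-coding gene.

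Of the 2 neuronal RNA-binding protein genes 1 (50%), elav, had a peak in both windows, against 48% of genes of similar length in spans and 25.3% at promoters. The promoter comparison was not matched for the number of TSSs, 2 in elav and 4 in fne. The product of elav is a nuclear protein that controls splicing and polyadenylation in neurons and is the standard marker of them. elav (chrX:509235-523226, minus strand, dm6) had 2 IDR peaks. The first, at chrX:523331-523650, had its summit 260 bp upstream of a TSS and a signal value of 460, rank 165 of 4045. Its signal value was 179.1 in replicate 2 (rank 180 of the 30000 entries of that library's own list) and 280.1 in replicate 3 (rank 170). The second, at chrX:522528-522744, lay in an intron 583 bp inside the gene with 346 in the IDR list, 147.2 in replicate 2 (rank 293) and 199.0 in replicate 3 (rank 383). Both replicates thus placed both peaks at rank 383 or better. A non-coding RNA gene, lncRNA:enrr, starts at the same TSS as elav, and both summits also lie inside the gene arg on the opposite strand, so the peaks cannot be assigned to elav alone. The paralogue fne, also a neuronal RNA-binding protein gene, had no IDR peak in its 32941 bp.

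The sequences at both elav summits are shown because they were the strongest in any of the 39 genes. Each is 200 bp of the dm6 plus strand around the summit, read from the RefSeq Release 6 genome, and capitals mark every match to the motifs searched, described further on.

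elav, chrX:523386-523585: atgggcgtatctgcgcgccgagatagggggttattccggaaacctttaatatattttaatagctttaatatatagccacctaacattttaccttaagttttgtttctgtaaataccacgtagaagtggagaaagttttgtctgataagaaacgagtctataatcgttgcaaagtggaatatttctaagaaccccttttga

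elav, chrX:522543-522742: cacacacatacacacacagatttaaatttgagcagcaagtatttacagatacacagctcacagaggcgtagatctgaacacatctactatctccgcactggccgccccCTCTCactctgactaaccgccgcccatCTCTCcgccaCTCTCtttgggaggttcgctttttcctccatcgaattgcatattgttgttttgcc

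The promoter window held 36.0% G and C, and the intron window 48.5%, the highest of the 11. The median over all IDR windows was 37.0%.

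Of the 4 genes of synaptic structure and adhesion 2 (50%) had a span peak, against 50.6% of genes of similar length, and the same 2 (50%) had a promoter peak, against 26.3%. Neither promoter peak lay within 500 bp of a TSS of another annotated gene. The promoter comparison rests on 4 genes and was not matched for the number of TSSs. That number was 7 in dlg1, 3 in Nrx-1 and futsch and 2 in nrv3. Over all protein-coding genes the promoter share was 39.1% with 3 TSSs and 57.6% with 6 or more. Nrx-1 encodes neurexin, a presynaptic adhesion protein. Its peak at chr3R:22469116-22469519 had its summit 137 bp downstream of a TSS, in a non-coding part of an exon, with a signal value of 287 (rank 510), and 108.3 in replicate 2 (rank 579) and 180 in replicate 3 (rank 485). dlg1 encodes Discs large, a scaffold protein of the postsynaptic membrane that also builds septate junctions in epithelia. It had 3 intronic peaks, 479, 680 and 1375 bp downstream of an internal TSS. Their signal values were 228, 120.9 and 90.6 in that order. The values were 94.7, 42.4 and 30.2 in replicate 2 (ranks 729, 2990 and 5248), and 130.8, 73.1 and 63.6 in replicate 3 (ranks 855, 2231 and 2713). In both libraries the values were lower with each step away from that TSS. futsch, which encodes a MAP1B-like microtubule protein, had its strongest entry at rank 9296 in replicate 2 and 8559 in replicate 3. nrv3, a subunit gene of the sodium and potassium pump, had no entry in replicate 2 and one at rank 11159 in replicate 3.

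The windows at the Nrx-1 summit and at the strongest dlg1 summit are shown as promoter sequences that, unlike that of elav, have no TSS of another annotated gene within 500 bp. Neither holds a match to the motifs searched.

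Nrx-1, chr3R:22469218-22469417: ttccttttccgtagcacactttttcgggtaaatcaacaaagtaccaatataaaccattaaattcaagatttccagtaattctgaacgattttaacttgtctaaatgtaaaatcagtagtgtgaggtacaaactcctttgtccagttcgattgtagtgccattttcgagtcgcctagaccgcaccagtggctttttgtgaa

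dlg1, chrX:11390751-11390950: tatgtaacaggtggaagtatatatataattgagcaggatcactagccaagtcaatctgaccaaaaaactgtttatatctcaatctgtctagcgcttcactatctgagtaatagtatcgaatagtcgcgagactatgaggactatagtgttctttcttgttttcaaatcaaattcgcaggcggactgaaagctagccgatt

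The vesicle release machinery, the transmitter receptors and the genes that make, load or break down transmitter each had 1 gene with a span peak. Of the 10 release genes 1 had a span peak (10%, against 48.7% of genes of similar length) and 0 had a promoter peak (against 26.4%). The 1 gene was nSyb, which encodes the vesicle SNARE synaptobrevin. Its peak at chr3L:1639503-1639611 had a signal value of 242, with 75.5 in replicate 2 (rank 1122) and 161 in replicate 3 (rank 582). That summit stood 1783 bp upstream of the nSyb TSS, and 176 bp from a TSS of Bgb, the gene of a partner of Runx factors, and 300 bp from one of Mettl2. At the TSSs of nSyb itself the pooled list and that of replicate 3 held no entry, and replicate 2 held one at rank 28285 of 30000.

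The other 9 release genes had no IDR peak. Syx1A, the gene of the plasma membrane SNARE syntaxin, came nearest to the IDR list, with its best span entry at rank 3812 in replicate 2 and 5969 in replicate 3. cpx, which encodes the SNARE regulator complexin and has 8 TSSs, had rank 3287 in replicate 2 but 24880 in replicate 3, so the replicates did not repeat each other there. Syn, the synapsin gene, stood at 5825 in replicate 2 and 7695 in replicate 3, and Syt1, the calcium sensor of release, at 8878 in replicate 2 and 12395 in replicate 3. For unc-13, a vesicle priming factor gene on chromosome 4, the ranks were 12921 in replicate 2 and 10347 in replicate 3. brp, the active zone scaffold gene, had an entry at rank 10802 in replicate 2 and no entry in replicate 3, and Rim, another active zone gene, one at 22609 in replicate 2 and no entry in replicate 3. Rab3, the gene of a vesicle GTPase, had its best entries at 24651 in replicate 2 and 24356 in replicate 3. Snap25, the second plasma membrane SNARE gene and with 225026 bp the longest of the 39, had 23891 in replicate 2 and 21480 in replicate 3. The pooled list held no entry for Rab3 or Snap25.

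Among the 9 voltage-gated channel genes, 2 had a span peak (22.2%, against 50.3% of genes of similar length) and 1 a promoter peak (11.1%, against 24.4%). Both peaks were among the weaker ones. sei encodes a potassium channel of the ERG type. Its peak at chr2R:24048864-24049267 had a signal value of 83.2, rank 3807 of 4045, with 30.8 in replicate 2 (rank 5092) and 49.1 in replicate 3 (rank 3832). The summit lay 137 bp upstream of an internal TSS of sei and 163 bp from a TSS of gammaSnap1. Shab encodes a delayed rectifier potassium channel. Its peak at chr3L:2913273-2913676 lay in an intron, 16732 bp from the nearest Shab TSS, with a signal value of 89.8 (rank 3430), 45 in replicate 2 (rank 2750) and 44.0 in replicate 3 (rank 4435).

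The remaining channel genes had no IDR peak. The nearest to one were para, the gene of the voltage-gated sodium channel, with span ranks of 5329 in replicate 2 and 4844 in replicate 3, and eag, another potassium channel gene, with 6839 in replicate 2 and 4888 in replicate 3. For Shal the ranks were 6098 in replicate 2 and 9448 in replicate 3, and for slo, the calcium-activated potassium channel gene, 11329 in replicate 2 and 7197 in replicate 3. Sh, the Shaker potassium channel gene, has 8 TSSs in 138941 bp and reached 16639 in replicate 2 and 8417 in replicate 3. Shaw had no entry in replicate 2 and rank 18428 in replicate 3. cac, which encodes the calcium channel that triggers release, had no entry in its 53808 bp in any of the 3 full lists, those of replicate 2, replicate 3 and the pooled reads.

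Shab is shown for its intron window, the peak of the 39 genes farthest from an own TSS, with no other gene's TSS within 500 bp. It holds 1 match to the GAGAG motif.

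Shab, chr3L:2913375-2913574: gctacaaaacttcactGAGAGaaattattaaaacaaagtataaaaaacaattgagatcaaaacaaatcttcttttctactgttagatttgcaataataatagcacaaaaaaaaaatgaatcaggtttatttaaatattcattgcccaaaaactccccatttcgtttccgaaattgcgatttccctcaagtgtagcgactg

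For the 6 genes that make, load or break down transmitter, 1 had a span peak (16.7%, against 44.0%) and 0 had a promoter peak (against 26.0%). ChAT encodes choline acetyltransferase, which makes acetylcholine, and VAChT, the vesicular acetylcholine transporter gene, shares its first TSS and lies within it. The peak at chr3R:18719738-18720141 stood in a ChAT intron 14439 bp from that TSS, beyond the end of VAChT. Its signal value was 229, with 85.9 in replicate 2 (rank 873) and 142.8 in replicate 3 (rank 728). The summit was inside the non-coding RNA gene lncRNA:CR46265 and 317 bp from its TSS. At the shared promoter of ChAT and VAChT none of the 3 full lists held an entry. In its own span VAChT had ranks of 16630 in replicate 2 and 12343 in replicate 3.

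ChAT, chr3R:18719840-18720039: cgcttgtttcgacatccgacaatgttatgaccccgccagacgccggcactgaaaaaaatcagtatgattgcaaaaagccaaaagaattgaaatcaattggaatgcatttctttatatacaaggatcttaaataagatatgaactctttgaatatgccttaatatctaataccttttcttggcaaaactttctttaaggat

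This window is shown as the strongest intronic peak of a transmitter gene, and it holds no match to the motifs searched. Ace, the acetylcholinesterase gene, had ranks of 5783 in replicate 2 and 5438 in replicate 3. Gad1, which makes GABA, had 13230 in replicate 2 and no entry in replicate 3. Of the vesicular transporter genes for glutamate and GABA, VGlut had no entry in replicate 2 and rank 19075 in replicate 3, and VGAT had 28117 in replicate 2 and 17138 in replicate 3.

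Of the 8 transmitter receptor genes 1 had a span peak (12.5%, against 45.7%) and 0 had a promoter peak (against 24.3%). It was nAChRalpha5, a subunit gene of the nicotinic acetylcholine receptor. The peak at chr2L:14047161-14047564 had a signal value of 187, with 70.3 in replicate 2 (rank 1275) and 115.1 in replicate 3 (rank 1078). Its summit lay in an intron, 7193 bp from the nAChRalpha5 TSS and 219 bp from the TSS of the nested gene NimC4, which encodes a receptor for the uptake of dying cells. The other nicotinic subunits ranked 3697 in replicate 2 and 5352 in replicate 3 for nAChRalpha6, and 8077 in replicate 2 and 3621 in replicate 3 for nAChRalpha7. Such ranks are of the strongest span entry in each library, which need not be the same site in both. For nAChRalpha1 the ranks were 8514 in replicate 2 and 14046 in replicate 3, and for nAChRbeta1 21462 in replicate 2 and 20968 in replicate 3. Rdl, a GABA receptor subunit gene, had 10105 in replicate 2 and 22711 in replicate 3. The muscle glutamate receptor genes were at the bottom. GluRIIC had an entry at 25803 in replicate 2 and no entry in replicate 3, and GluRIIA no entry in any list.

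**Figure D2:**
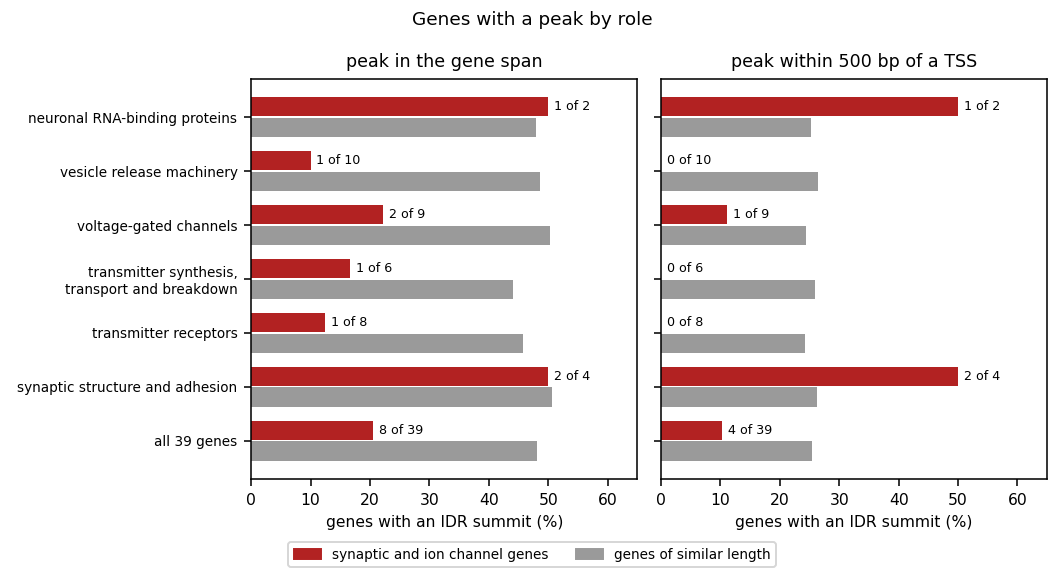
Share of genes with an IDR summit (x axis, percent) by role, for the span (left panel) and for 500 bp around TSSs (right panel). Red bars are the 39 genes, with counts beside them, and grey bars the 200 genes nearest in length to each. In the spans the red bar is shorter than the grey one for the 4 roles from vesicle release machinery to transmitter receptors, at 10 to 22.2% against 44.0 to 50.3%, and about as long for neuronal RNA-binding proteins (50% against 48%) and synaptic structure and adhesion (50% against 50.6%).

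Of the 8 genes with a span peak, 3 carried it within 500 bp of a TSS of another protein-coding gene: nSyb, sei and nAChRalpha5. Summits near the TSS of any other gene but not near an own TSS were then left out. This took away nSyb, nAChRalpha5 and ChAT and left 5 of 39 genes (12.8%), namely elav, Shab, sei, dlg1 and Nrx-1. The same step left 44.1% of the genes of similar length and 24.2% of all protein-coding genes with a span peak. For promoters, leaving out summits shared with another protein-coding gene left 3 of 39 genes (7.69%), against 17.7% of the genes of similar length and 8.29% of all. After this step the promoter share of the 39 genes was near that of all protein-coding genes and below that of genes of similar length.

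The full lists of 30000 entries show what lies below the IDR list. The strongest entry in the span of each of the 39 genes had a median rank of 11018 in the pooled list, against 4325 for the genes of similar length. In replicate 2 the medians were 8878 against 4439, and in replicate 3 they were 9448 against 4199. Entries of any strength were also sparse, with 9.22 per 100 kb of span in the pooled list against 24.3 in the genes of similar length. In the single libraries these densities were 10.2 against 24.1 in replicate 2 and 10 against 24.6 in replicate 3. Both libraries thus ranked these spans below those of genes of similar length, but not below those of all protein-coding genes, whose medians were 11484 in the pooled list, 11217 in replicate 2 and 11390 in replicate 3. Of the 39 genes 14 (35.9%) had no entry at any TSS in any of the 3 lists: brp, Snap25, Rab3, Rim, cac, para, ChAT, VAChT, VGlut, Gad1, Ace, nAChRalpha1, GluRIIA and GluRIIC. That share was 21.3% for genes of similar length and 37.2% for all protein-coding genes. In the whole span 2 genes, cac and GluRIIA (5.13%), had no entry in any list, against 2.65% of genes of similar length and 18% of all protein-coding genes.

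**Figure D3:**
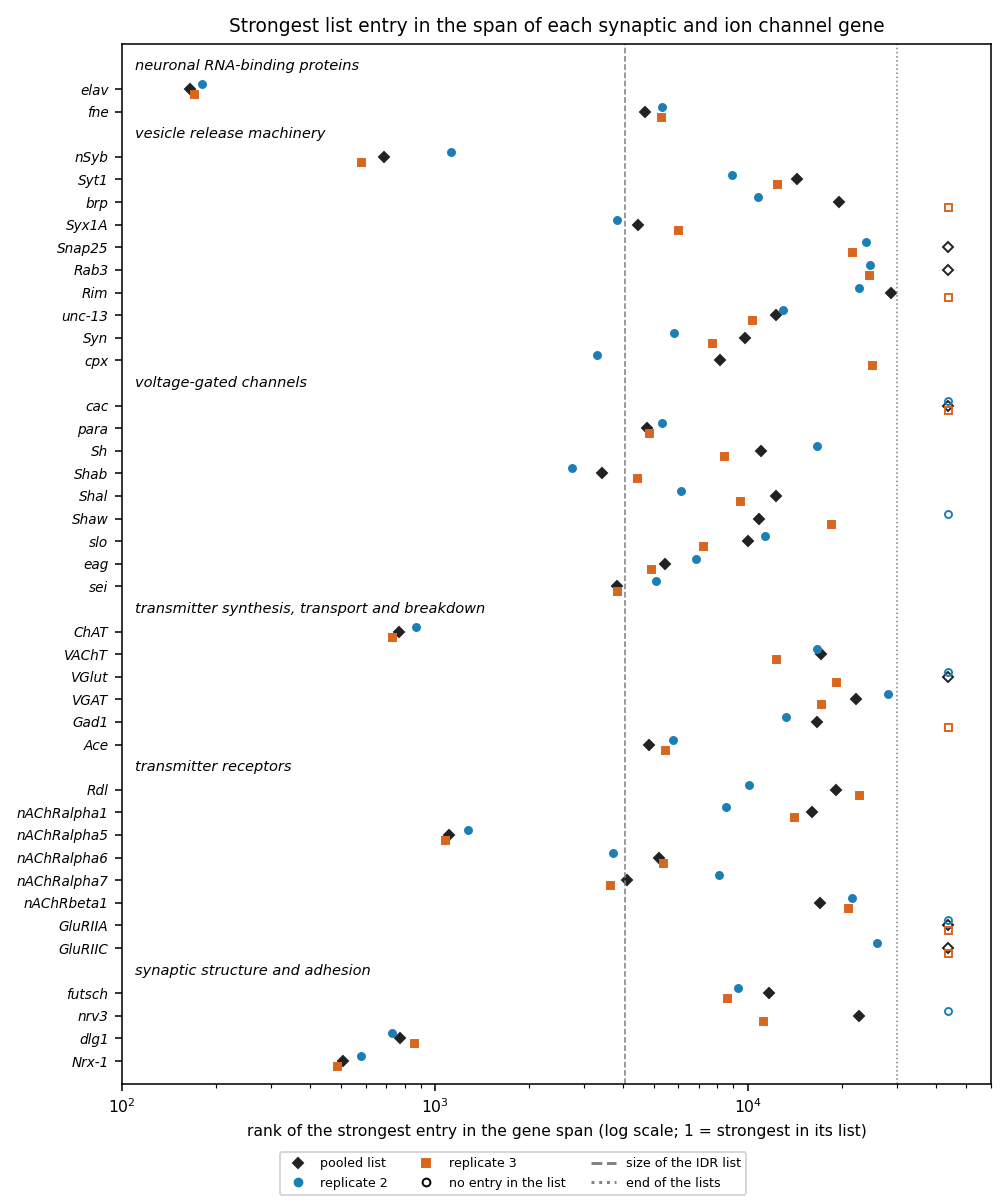
Rank of the strongest entry in the span of each of the 39 genes (x axis, logarithmic, 1 is the strongest entry of its list) in the pooled list (diamonds), replicate 2 (circles) and replicate 3 (squares). The dashed line marks the size of the IDR list, 4045, and open symbols right of the dotted line at 30000 stand for no entry. The 6 genes elav, nSyb, ChAT, nAChRalpha5, dlg1 and Nrx-1 lie at ranks of 1275 or better in both replicates, while the next gene by pooled rank, Shab, is at 2750 in replicate 2 and 4435 in replicate 3.

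The shares were then followed down the list. Among the 1000 strongest pooled entries 5 of the 39 genes (12.8%) had one in their span, against 19.0% of genes of similar length and 9.38% of all protein-coding genes. Among the 8090 strongest it was 15 of 39 (38.5%), against 68.1% and 42.2%. With all 30000 entries it was 33 of 39 (84.6%), against 93.7% and 72.9%. The 39 genes were thus below genes of similar length at each of these depths, and on either side of all protein-coding genes. At promoters the shares were 7.69% with 1000 entries, against 8.53% of genes of similar length and 6.13% of all, and 17.9% with 8090, against 43.2% and 31.2%. The 3 genes elav, dlg1 and Nrx-1 supply the promoter share up to 2000 entries in all 3 lists, and between 1000 and 2000 entries no further gene of the 39 joined them.

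**Figure D4:**
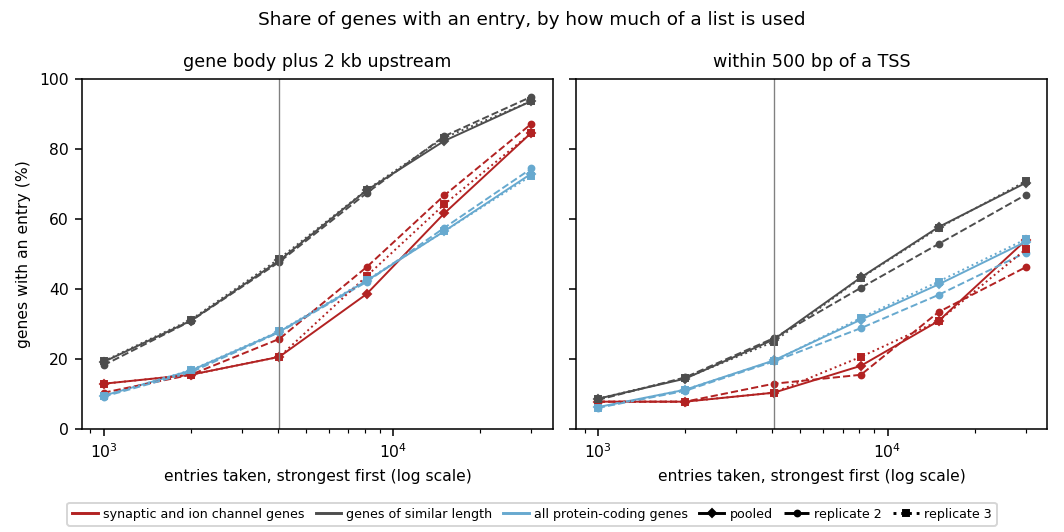
Share of genes with an entry (y axis, percent) when the strongest 1000 to 30000 entries of a list are used (x axis, logarithmic), in gene spans (left) and within 500 bp of TSSs (right). Red is the 39 genes, grey the genes of similar length and blue all protein-coding genes; line styles give the pooled list and each replicate, and the vertical line marks 4045 entries. In the spans the red lines run below the grey lines at every depth, by the most at 4045 to 8090 entries (20.5 against 48.1% and 38.5 against 68.1% in the pooled list).

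The IDR list ends at a signal value of 79.5. Just inside it among these genes was sei, at 83.2. Just outside were a further dlg1 entry at 79.5 (pooled rank 4049) and nAChRalpha7 at 78.4 (rank 4120, 527 bp upstream of its TSS). In the spans of 16 of the 39 genes (41.0%) each replicate had an entry among its 8090 strongest, against 60.9% of genes of similar length and 35.6% of all protein-coding genes. Of the 39 genes 8 (20.5%) met this without an IDR peak, against 13.1% of genes of similar length and 8.32% of all. These are shares of all genes in each set, and fewer of the 39 genes had an IDR span peak (20.5%, against 48.1% and 27.7%). The shares as given therefore do not say whether there was an excess among genes without an IDR peak. The 8 genes were fne, Syx1A, Syn, para, eag, Ace, nAChRalpha6 and nAChRalpha7. For 6 of these, all but Syn and eag, the entries of both replicates lay within 200 bp of one pooled summit. Those summits had signal values from 65.2 at nAChRalpha6 to 78.4 at nAChRalpha7 and −log10 q-values from 2.84 to 3.44, against 3.91 for every IDR peak. The dlg1 entry just outside the IDR list also had 3.91, so that value is not particular to the list. Near the promoter were Syx1A (73.4, 677 bp upstream) and nAChRalpha7, while the fne, Ace and nAChRalpha6 entries lay in introns and the para entry in a non-coding part of an exon 68670 bp from the nearest TSS. In replicate 2 the nAChRalpha6 entry matched to the pooled summit was at rank 5798, while the strongest entry in that span was at 3697.

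The IDR procedure compares the 2 libraries, but its list here is exactly the 4045 strongest entries of the pooled list. Which peaks it holds thus follows the pooled signal value. The pooled reads come from both libraries, so entries of both replicates at its peaks are largely fixed by that choice. Each of the 11 peaks had one in both replicates, at most 95 bp from the IDR summit, as did 99.4% of all IDR peaks within 200 bp. Of the 11 peaks 8 (72.7%) were among the 4045 strongest entries of both, against 75.4% of all IDR peaks. The exceptions were sei (rank 5092 in replicate 2), Shab (4435 in replicate 3) and the weakest dlg1 peak (5248 in replicate 2). When the 4045 strongest entries of a single library replaced the IDR list, replicate 3 gave 8 genes with a span peak (against 48.6% of genes of similar length and 27.8% of all) and 4 with a promoter peak (24.8% and 19.4%). Replicate 2 gave 10 genes with a span peak (47.7% and 27.5%) and 5 with a promoter peak (25.8% and 19.2%). Replicate 2 alone added Syx1A, cpx and nAChRalpha6 and dropped sei, and replicate 3 alone added nAChRalpha7 and dropped Shab.

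The known sites of bZIP factors were not found at these peaks. In 200 bp windows around the 11 summits, on both strands, 0 held the PAR site (TTACGTAA or TTATGTAA), against 1.95% of all 4045 IDR windows and 1.31% of 200 bp windows at 19252 protein-coding TSSs. The C/EBP site TTGCGCAA, the CRE TGACGTCA, the AP-1 site (TGACTCA or TGAGTCA), the DRE TATCGATA and the E-box CACGTG were also at 0 of 11, and in all IDR windows they stood at 0.222%, 0.321%, 1.93%, 4.94% and 2.50%. The AP-1 forms are reverse complements of each other. GAGAG was in 2 of 11 windows, those of elav in the intron and of Shab, against 23.3% of IDR windows. The sites at 0 are rare in all windows, and 11 windows say little about their share. At the 90 TSSs of the 39 genes the PAR site was in 2 windows (2.22%), of cpx and VGAT, and neither gene had an IDR peak. Base composition had a median of 35.0% G and C at the 11 summits against 37.0% over the IDR list (quartiles 33.0 and 41.5%).

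Other genes of the same pathways, a list of 85 that excludes the 39, gave shares of the same order. Of these 21 (24.7%) had a span peak, against 45.9% of genes of similar length and 27.7% of all protein-coding genes. A promoter peak was found for 10 (11.8%), against 25.9% and 19.5%. Their roles differed among themselves. Of 17 further channel and channel subunit genes 9 (52.9%) had a span peak, against 47.9% of genes of similar length. They were led by KCNQ (502), NaCP60E (282), Irk1 (262), qvr (195), Elk (161) and Hk (150.4). The NaCP60E summit also lay within 500 bp of a TSS of RpL41 and the Elk summit of one of Mapmodulin. Of 23 further receptor genes 2 (8.70%) had a span peak, against 45.5%, and of 12 further transmitter enzymes and transporters 1 (8.33%), against 38.9%, the glutamine synthetase gene Gs2 (343). Of 20 further release and recycling genes 6 (30.0%) had one, against 42.4%, led by AP-2alpha (418), an endocytic adaptor gene whose promoter is shared with ebi. Of 13 further structural and adhesion genes 3 (23.1%) did, against 52.8%, led by nrv1 (587) and Atpalpha (230), both subunit genes of the sodium and potassium pump, which many cell types use. The receptor genes were low in both lists, and so were the transmitter enzymes and transporters (1 of 6 and 1 of 12).

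The nearest other groups are a mixed list of neuroblast, proneural and glial genes, and the sensory receptor genes. Of 28 neuroblast, proneural and glial genes 7 (25%) had a span peak, against 32.3% of genes of similar length and 27.7% of all protein-coding genes. The merged spans of the 28 genes held 5.28 summits per 100 kb, with 6 each of the 19 summits in brat and pnt. Of 180 chemosensory receptor genes 7 (3.89%) had a span peak, against 25% of genes of similar length. The densities of the chemosensory genes and of the 85 further synaptic and channel genes were 0.921 and 1.19 summits per 100 kb, against 0.714 for the 39 genes. These differences between groups were not tested.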

How the data were processed

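Whole-embryo CG7786-eGFP ChIP-seq from 2 libraries was analysed from deposited peak lists on dm6. Per the text deposited with each library, the authors called a relaxed list on each replicate and on the pooled alignments against 1 control alignment, and derived the IDR list from these; no caller or IDR threshold was stated in the material used. The signal value of each peak is the authors' own, as deposited, and so is its −log10 q-value. These are not counts, depth is unknown, and the values served only to rank and describe peaks within a list.

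Summits were placed on Ensembl 115 genes with Python 3.11.15, NumPy 2.4.6 and SciPy 1.17.1, with figures from Matplotlib 3.10.9. Promoter windows were 500 bp on either side of every annotated TSS, and spans the gene body plus 2000 bp upstream. The genes of similar length were the 100 shorter and 100 longer nearest protein-coding genes, and a gene can serve several times. Where fewer than 100 longer genes existed, the 200 longest other genes were used, so most of them were shorter. Lists were ranked by signal value. Sequences came from the RefSeq genome of the same release, whose arm lengths hold all peaks, and exact motif matches were sought on both strands of 200 bp windows. The placement was tested on simulated summits. The members and gene lists were chosen with earlier results of these data known. Full values were to be given for members with an IDR summit and for those ranked within 8090 in both replicates, and all members are accounted for; other genes are named where their TSS lies at a summit or among the 10 strongest of the further synaptic genes. With 1 group there was no test between conditions. Alternatives changed the window, the list, the comparison genes, the motif window and the libraries used.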

Additional observations from a re-analysis of the deposited data

How the results depend on the processing

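With the 8090 strongest pooled entries in place of the IDR list, 7 of the 39 genes had a promoter peak (43.2% of genes of similar length) and 15 a span peak (68.1%), and of the 85 further synaptic and channel genes 23 had a promoter peak (42.8%) and 40 a span peak (65%). With the 2022 strongest IDR peaks the further genes had 6 promoter (15.1%) and 11 span peaks (29.1%), and the spans of the 39 genes held 7 summits. A 250 bp promoter window left 2 genes, sei and Nrx-1 (18.8%), since the elav summit lies at 260 bp and that of dlg1 at 479 bp. Spans with 5000 bp upstream gave 13 genes (52.7%), and spans without summits at other genes' TSSs gave 5 (44.1%). The median best span rank was 8878 to 9448 when either library was left out, and in promoter windows of the pooled list it was 25695. Genes in the same decile of length had a span peak in 47.1% of cases, and genes with the same number of TSSs a promoter peak in 28.1%. GAGAG was in 1 window at 100 bp. Of the alternative values 38 stayed within 1.5 times the reported count or, for ranks and shares, moved by less than the SD between the 2 libraries, and the other 16 are those above. Leaving out a library gave 4 to 5 genes with a promoter peak and 8 to 10 with a span peak. The cause of these shifts was not tested beyond the windows' own construction. No paired analysis was possible because there is only 1 group. Scores without read counts allow no interval, and the absence of a peak says only that none passed the authors' threshold.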

Other observations

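Several of the 39 genes had IDR summits just outside their spans, and the genes named here were chosen after their values were seen. Between 2000 and 5000 bp upstream, 5 genes without a span peak gained one: Syx1A, Rab3, Rim, eag and Ace. With 5000 bp upstream 13 of the 39 genes thus had a peak, against 52.7% of genes of similar length. With 2000 bp on both sides it was 11 of 39, against 51.9%. The shares of all protein-coding genes in these wider windows are not given, so these summits are not shown to be particular to the 39 genes. For Syx1A (signal value 307, 3344 bp upstream), Rab3 (153, 2092 bp), eag (178, 4481 bp) and Ace (83.5, 4674 bp) the summit lay within 500 bp of a TSS of another protein-coding gene, such as eIF4EHP, CG7220, pdgy and Su(var)3-7. For Rim, the active zone gene, the summit 2669 bp upstream (176) had no such neighbour. sei had a further summit 2074 bp upstream with a signal value of 298 and no other coding TSS within 500 bp, against 83.2 for the peak in its span. elav had a further one 3517 bp upstream (155.9). Downstream of the gene end, within 2000 bp, summits lay at nAChRalpha5 (445 bp, 122.8) and Syx1A (715 bp, 87.7) with no other coding TSS within 500 bp. Those at unc-13 (748 bp, 99.4) and nSyb (774 bp, 90.2) were at TSSs of Gyf and GC, and that at VAChT (1024 bp, 229) is the ChAT peak.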
